A study of Mus musculus with 8 samples.

Results

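The transcription factor p53, encoded by Trp53, and 9 of its known target genes were examined in the epidermis of newborn mice that express a mutant mitochondrial helicase: Mdm2, Cdkn1a, Plk2, Plk3, Ccng1, Bbc3, Phlda3, Btg2 and Gadd45a. The 10 genes were taken by symbol from the annotation of the array, keeping probe sets that name a single gene. On this rule 8 of the 10 had a value, out of 22180 genes in all. Trp53 had no probe set named here and was not analysed here, and the probe set of Gadd45a also names E230016M11Rik, so it was left out. The set therefore describes p53 targets and not p53 itself.

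Total RNA of the epidermis of C57BL/6J pups at postnatal day 0 was hybridised to 8 arrays. In 4 of them, labelled K320E-TwinkleEpi and called K320E here, the pups expressed the K320E mutant of Twinkle, the helicase that unwinds mitochondrial DNA. Its expression was targeted through the K14 promoter, which is active in basal keratinocytes. The other 4 arrays are controls labelled R26-K320E-TwinkleloxP/+, so the control pups carry the K320E-Twinkle allele as well. The labels name neither pups nor litters, so the p-values speak only of the variation among these samples, and that may be technical. Twnk, the gene of the helicase, was 2.31 higher in K320E on the log2 scale (limma adjusted p = 0.00011), with all 4 K320E arrays above all controls, on a probe set that reads mutant and normal transcripts together. Array medians lay between 6.06 and 6.11, and correlations between arrays of a group between 0.987 and 0.994. The number of arrays limits the precision. In 2 controls the sex-linked transcripts differed from the other arrays: control replicate 2 held Xist, the RNA of the silenced X chromosome, at 9.27 together with the Y-linked genes Eif2s3y, Kdm5d and Uty at 9.38, 9.02 and 8.76, and control replicate 3 held Xist at 6.17 with the same Y-linked genes at 4.77, 4.77 and 4.70. The other arrays had either Xist at 12.07 to 12.27 with low Y-linked genes or, in K320E replicate 3, Xist at 6.84 with Y-linked genes at 7.72 to 9.25. Values without both controls are given below.

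In unstressed cells p53 protein is kept scarce by MDM2, a ubiquitin ligase that marks it for destruction and whose gene is itself switched on by p53. Stress such as DNA damage stabilises the protein, which then activates genes that stop the cell cycle, repair DNA or kill the cell. In the epidermis the arrest gene Cdkn1a is also used when keratinocytes leave the cycle to differentiate. Plk2, Plk3 and Btg2 are known to respond quickly to growth factors and other signals without p53 as well.

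Of the 8 measured targets, 1 rose in K320E and 0 fell past the threshold of 0.05 on p-values adjusted over all genes (limma with Benjamini-Hochberg adjustment). The gene that rose was the kinase gene Plk2, by 0.66 on the log2 scale. Over all genes 0.879% were called, 0.685% higher and 0.194% lower. The groups did not overlap for Plk2, Ccng1, Cdkn1a and Phlda3, 4 of 8, all higher in K320E. Over all genes 9.25% did not overlap, 5.5% higher and 3.75% lower. Before adjustment, 5 of 8 had a p under 0.05 with a higher level in K320E, against 8.77% of all genes, and 1, Btg2, with a lower level, against 6.06%. The fold changes of the 8 had a median of 0.40, beside -0.00052 over all genes. That median was 0.27 without K320E replicate 1 and 0.26 with the level of hair structure genes as a covariate. All 8 lay above the lowest 33.3% of genes by mean level. Bbc3 was weak, however, with means of 5.74 in K320E and 5.68 in controls, below all array medians (6.06 to 6.11).

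**Figure D1:**
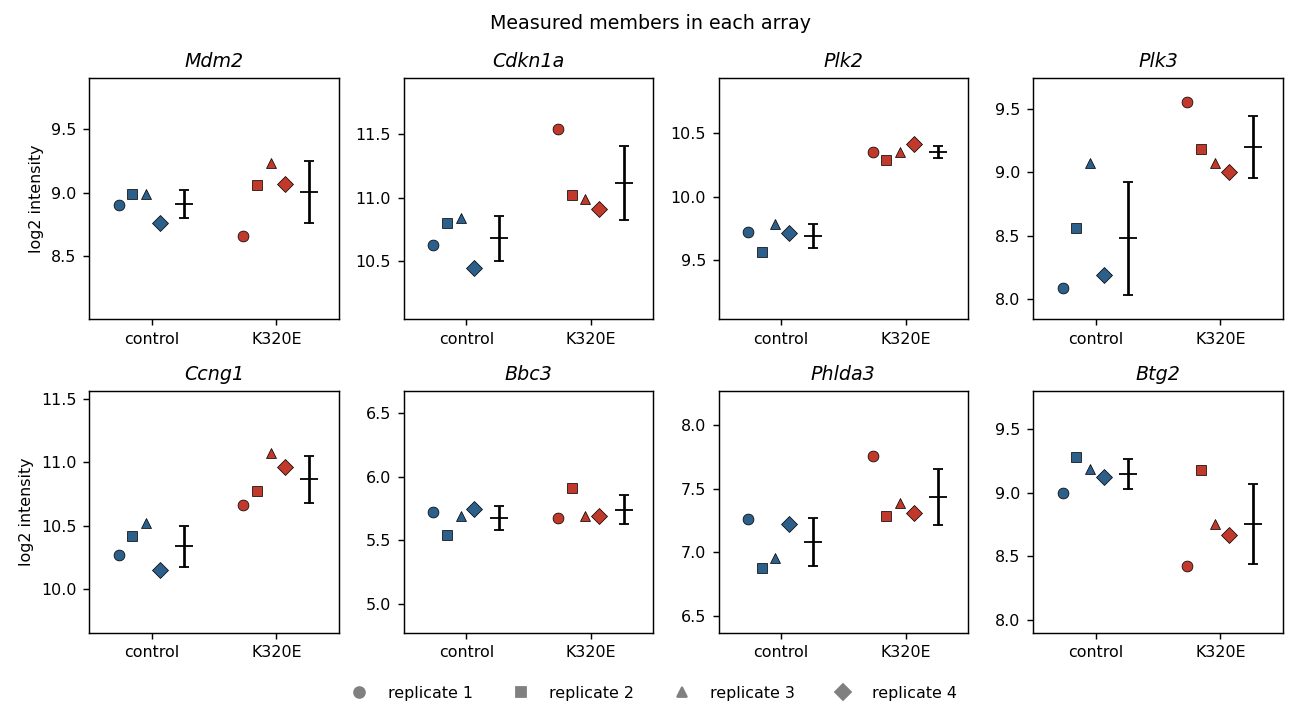
Log2 intensity of the 8 measured genes in each control array (blue) and K320E array (red), with the marker shape giving the replicate number and the bar the mean ± SD of 4 arrays. Each panel spans the same height. The Plk2 groups are far apart with little spread, from 9.56 to 9.78 in controls and from 10.29 to 10.41 in K320E, while Plk3 has 1 control at 9.07.

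Plk2 and Plk3 are stress-responsive members of the polo-like kinase family, both targets of p53. Plk2 measured 10.35, 10.29, 10.35 and 10.41 in K320E replicates 1 to 4 and 9.72, 9.56, 9.78 and 9.71 in control replicates 1 to 4. Every K320E array was therefore above every control, with a gap of 0.52 between the groups. The means were 10.35 ± 0.05 and 9.69 ± 0.09 (SD, n = 4 each). The fold change was 0.66 (SE 0.06, 95% interval 0.52 to 0.80, limma adjusted p = 0.0037), or 1.58-fold, and Plk2 ranked 11 of 22180 genes by p.

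Plk3 measured 9.55, 9.18, 9.07 and 9.00 in K320E and 8.09, 8.56, 9.07 and 8.19 in controls. Control replicate 3 lay at the level of the K320E arrays, and the other 3 controls were below all of them. Its fold change of 0.72 (SE 0.21, 95% interval 0.24 to 1.19) did not pass the threshold (limma adjusted p = 0.163). With 1 array left out it ranged from 0.59 (without control replicate 1, limma adjusted p = 0.29) to 0.92 (without control replicate 3, limma adjusted p = 0.047), and it passed in that 1 of the 8 fits. Taken within each array, Plk2 minus Plk3 differed by -0.06 between the groups, with a 95% interval of -0.68 to 0.56 (exact two-sided permutation p = 0.8), which does not show that both kinases changed alike.

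Cdkn1a encodes p21, the inhibitor of cyclin-dependent kinases through which p53 stops the cell cycle. It measured 11.54, 11.02, 10.99 and 10.91 in K320E and 10.63, 10.80, 10.84 and 10.45 in controls. The groups did not overlap, but their gap was 0.06, and K320E replicate 1 stood above the other K320E arrays. The fold change of 0.43 (SE 0.14, 95% interval 0.11 to 0.76) did not pass the threshold (limma adjusted p = 0.211). The related inhibitor gene Cdkn1b, which encodes p27, measured 7.72, 7.61, 7.42 and 7.67 in K320E and 7.89, 7.76, 7.92 and 7.92 in controls, with a fold change of -0.27 (limma adjusted p = 0.15). Cdkn1a minus Cdkn1b within each array was 0.70 higher in K320E (95% interval 0.30 to 1.11), with an exact two-sided permutation p of 0.0286, the smallest that 4 against 4 arrays allow, or 0.171 adjusted over the 6 pairs compared.

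Ccng1 encodes cyclin G1, a p53 target that acts on MDM2 through a phosphatase. It measured 10.66, 10.77, 11.07 and 10.96 in K320E and 10.27, 10.42, 10.52 and 10.15 in controls. All K320E arrays were higher, with a gap of 0.14. The fold change of 0.53 (SE 0.11, 95% interval 0.28 to 0.77) missed the threshold (limma adjusted p = 0.068). It passed when the lowest 33.3% of genes were left out (adjusted p = 0.041 in limma) and with an intensity trend and a robust prior (adjusted p = 0.038 in limma). Its relative Ccng2, cyclin G2, had a fold change of 0.10 (limma adjusted p = 0.56). Ccng1 minus Ccng2 was 0.43 higher in K320E (95% interval 0.08 to 0.78, exact two-sided permutation p = 0.0857, 0.171 adjusted over the 6 pairs).

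Phlda3, whose product restrains AKT signalling at the membrane, measured 7.76, 7.29, 7.39 and 7.31 in K320E and 7.26, 6.88, 6.96 and 7.22 in controls. The K320E arrays were all higher, by as little as 0.03 at the border of the groups. Its fold change was 0.36 (SE 0.13, limma adjusted p = 0.229). Phlda1, a related pleckstrin homology gene, measured 8.90, 8.90, 9.15 and 9.19 in K320E and 8.46, 8.44, 8.37 and 8.57 in controls and rose by 0.58 (SE 0.09, limma adjusted p = 0.021). Phlda3 minus Phlda1 differed by -0.22 between the groups (95% interval -0.66 to 0.22, exact two-sided permutation p = 0.314, 0.377 adjusted over the 6 pairs). Phlda1 passed in 4 of the 8 fits that left out 1 array each, the highest adjusted p being 0.073 in limma.

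Btg2, an antiproliferative gene that acts on transcription and mRNA decay, was the 1 measured target with a negative fold change. It measured 8.42, 9.18, 8.75 and 8.67 in K320E and 9.00, 9.28, 9.19 and 9.12 in controls. In 3 of 4 K320E arrays it was below all controls, while K320E replicate 2 lay among them. The fold change was -0.39 (SE 0.14, 95% interval -0.72 to -0.07, limma adjusted p = 0.247). With 1 array left out it ranged from -0.53 (without K320E replicate 2, limma adjusted p = 0.064) to -0.28 (without K320E replicate 1, limma adjusted p = 0.397), and it passed in 0 of the 8 fits. Btg1, its nearest relative on the list, had a fold change of -0.07 (limma adjusted p = 0.757), and Btg2 minus Btg1 differed by -0.32 (95% interval -0.81 to 0.16, exact two-sided permutation p = 0.114, 0.171 adjusted over the 6 pairs).

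Mdm2 and Bbc3 showed the smallest fold changes of the set. Mdm2 measured 8.66, 9.06, 9.23 and 9.07 in K320E and 8.90, 8.99, 8.99 and 8.76 in controls. K320E replicate 1 was below all controls and the other 3 K320E arrays above them, and the fold change was 0.09 (95% interval -0.17 to 0.36, limma adjusted p = 0.781). Mdm4, a relative of MDM2 that binds and restrains p53, was lower in all 4 K320E arrays (9.58, 9.65, 9.78 and 9.76) than in all controls (9.87, 9.90, 10.06 and 9.90), a fold change of -0.24 (limma adjusted p = 0.155). Mdm2 minus Mdm4 was 0.33 higher in K320E (95% interval 0.09 to 0.57, exact two-sided permutation p = 0.0571, 0.171 adjusted over the 6 pairs). Bbc3, which encodes the pro-apoptotic protein PUMA, measured 5.68, 5.91, 5.69 and 5.69 in K320E and 5.72, 5.54, 5.69 and 5.75 in controls, a fold change of 0.07 (95% interval -0.10 to 0.23, limma adjusted p = 0.757). All these Bbc3 values were below the array medians, so a change could be hidden by the weak signal. None of the 6 pairs passed 0.05 after adjustment, and with 6 pairs a single pair at the smallest possible p could not.

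**Figure D2:**
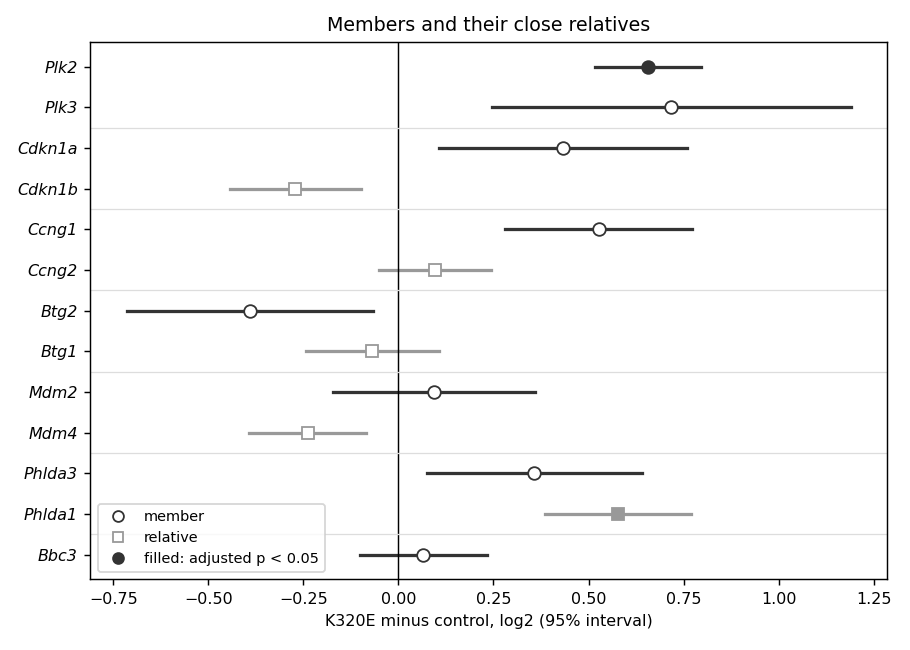
Fold change between K320E and control on the log2 scale with its 95% interval for the 8 measured targets (circles) and the relatives they were paired with (squares). Filled symbols, Plk2 and Phlda1, had an adjusted p under 0.05 in limma. The Plk3 interval, from 0.24 to 1.19, is the widest shown, and the Plk2 interval runs from 0.52 to 0.80.

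The targets did not peak in the same K320E array. K320E replicate 1 held the highest K320E value of Cdkn1a, Plk3 and Phlda3, which lay 0.43, 0.35 and 0.32 above their group means. In the same array Mdm2, Btg2, Ccng1 and Bbc3 were at their lowest among the K320E arrays, at -0.35, -0.33, -0.21 and -0.07 from their group means. Plk2 stayed within 0.06 of its group mean in all 4 K320E arrays. Among the controls, replicate 3 held the highest value for Cdkn1a, Plk2, Plk3 and Ccng1.

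The sequences just upstream of the start sites are shown for 4 of these genes: Plk2, which rose, Cdkn1a and Ccng1, which were higher without overlap, and Btg2, whose fold change was negative. They are the 250 bases before the annotated start on the gene's own strand, from RefSeq on GRCm38.p6. They cover chr13:110394794-110395043 on the plus strand for Plk2, chr17:29090729-29090978 on the plus strand for the first of the Cdkn1a starts, chr11:40755287-40755536 on the minus strand for Ccng1 and chr1:134079156-134079405 on the minus strand for Btg2. Capitals mark matches, on either strand, to the motifs searched.
Plk2: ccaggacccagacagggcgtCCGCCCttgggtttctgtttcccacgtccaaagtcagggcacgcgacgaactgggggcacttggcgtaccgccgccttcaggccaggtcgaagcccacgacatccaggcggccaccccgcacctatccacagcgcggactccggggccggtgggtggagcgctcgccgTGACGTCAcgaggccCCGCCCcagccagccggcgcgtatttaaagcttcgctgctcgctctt
Cdkn1a: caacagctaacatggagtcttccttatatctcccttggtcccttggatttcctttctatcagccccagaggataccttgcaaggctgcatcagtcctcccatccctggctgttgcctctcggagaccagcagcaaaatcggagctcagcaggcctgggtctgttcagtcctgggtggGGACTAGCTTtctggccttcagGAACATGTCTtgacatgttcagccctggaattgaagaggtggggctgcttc
Ccng1: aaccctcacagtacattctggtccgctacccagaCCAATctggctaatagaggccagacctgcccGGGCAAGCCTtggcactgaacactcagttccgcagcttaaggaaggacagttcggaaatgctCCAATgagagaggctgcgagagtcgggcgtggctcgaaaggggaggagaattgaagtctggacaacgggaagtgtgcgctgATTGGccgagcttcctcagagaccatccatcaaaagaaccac
Btg2: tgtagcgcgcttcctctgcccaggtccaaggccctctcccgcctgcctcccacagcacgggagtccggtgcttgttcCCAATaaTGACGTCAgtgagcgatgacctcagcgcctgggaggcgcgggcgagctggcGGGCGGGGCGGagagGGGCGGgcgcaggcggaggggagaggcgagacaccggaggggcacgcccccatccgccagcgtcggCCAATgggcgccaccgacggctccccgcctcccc

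All 10 genes had an entry, with 13 starts in all. The motifs were the p53 decamer consensus, a pair of such decamers with a spacer of 0 to 13 bases, the CArG box bound by serum response factor, the TATA box TATAAA, the NF-Y site CCAAT, the GC box GGGCGG, the cyclic AMP response element TGACGTCA, the AP-1 site TGANTCA and the ATF4-type site TGATGNAAT. Matches may overlap, as pairs contain decamers and GGGCGG can overlap itself. A p53 decamer was found for 5 of the 10 genes, namely Trp53, Mdm2, Cdkn1a, Ccng1 and Gadd45a, or 5 of 13 starts, beside 7.13% of all 32851 starts. In Ccng1 it lay 185 to 176 bases before the start. Cdkn1a alone of the 10 held a pair, 73 to 42 bases before its first start, beside 0.0639% of all starts. The window of its second start held only GGGCGG matches. TGACGTCA was found in Plk2, 62 to 55 bases before the start, and in Btg2, 166 to 159 bases before it, beside 1.55% of all starts. GGGCGG was in 10 of 13 starts, beside 32.7% of all, CCAAT in 6, beside 33.8%, and TATAAA in 1, beside 12.4%. The CArG box (1.47% of all starts), TGANTCA (6.75%) and TGATGNAAT (0.816%) were in none of the 13 windows. A match is a description of letters in this window and not of binding.

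The rest of the pathway was followed through lists of its parts. The list of other arrest and feedback genes had 17 measured. Cdkn1b, Cdkn1c, Ccng2, Btg1, Gadd45b and Gadd45g are on it and also on the list of close relatives of the members. Of the 17, 0 rose and 0 fell past the threshold in limma, with a median fold change of 0.10. At an unadjusted limma p under 0.05, 5 of the 17 were higher and 2, Sesn1 and Cdkn1b, lower. Beside these counts and those of the next lists stand 8.77% higher and 6.06% lower over all genes. Sesn2, a sestrin that restrains mTORC1, had a fold change of 0.73 (SE 0.18, limma adjusted p = 0.106) and was higher in all 4 K320E arrays, whereas its relative Sesn1 had one of -0.52 (SE 0.17, limma adjusted p = 0.202). The RNA-binding gene Zmat3 had a fold change of 0.59 (limma adjusted p = 0.185), and Sfn, the epithelial protein 14-3-3 sigma, one of 0.47 (limma adjusted p = 0.095). Gadd45b, a relative of Gadd45a, had a fold change of 0.50 (limma adjusted p = 0.191). Pcna, the sliding clamp of DNA replication, had one of -0.10 (limma adjusted p = 0.591).

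Among 16 p53 targets that promote apoptosis 0 rose and 0 fell in limma, with 4 higher and 0 lower at an unadjusted p under 0.05, and the median was 0.10. The nuclease gene Aen had a fold change of 0.41 (limma adjusted p = 0.19) and Pmaip1, which encodes NOXA, one of 0.39 (limma adjusted p = 0.164). Perp, a p53 target that is also part of desmosomes in the epidermis, had one of 0.02 (limma adjusted p = 0.95). In 0 of the 16 did the groups separate, beside 9.25% of all genes.

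Among 11 targets of DNA repair and metabolism 0 rose and 0 fell in limma, with 3 higher and 1 lower at an unadjusted p under 0.05, and the median was 0.11. The polymerase gene Polk, used to copy past damaged bases, was higher in all 4 K320E arrays, at a fold change of 0.42 (SE 0.09, limma adjusted p = 0.068). Pank1, an enzyme of coenzyme A synthesis, was lower in all 4, at -0.33 (SE 0.08, limma adjusted p = 0.102). Gpx1, which reduces peroxides, had a fold change of 0.17 (limma adjusted p = 0.346).

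The 23 regulators and partners of p53 had a median of 0.04, and 0 rose and 0 fell in limma, with 3 higher and 1 lower at an unadjusted p under 0.05. Ppp1r13l, which encodes the p53 inhibitor iASPP, had a fold change of 0.40 (limma adjusted p = 0.264), the damage kinase gene Chek2 one of 0.32 (limma adjusted p = 0.504) and the ubiquitin ligase gene Cop1 one of -0.11 (limma adjusted p = 0.468). The p53 relatives Trp63 and Trp73 had fold changes of -0.03 and 0.02.

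Cell cycle genes that p53 represses through p21 were read as well. Of 24 measured, 0 rose and 0 fell in limma, with 6 higher and 2 lower at an unadjusted p under 0.05, and the median was 0.11. The mitotic kinase gene Aurkb had a fold change of 0.48 (limma adjusted p = 0.278), the ribonucleotide reductase gene Rrm2 one of -0.51 (limma adjusted p = 0.241) and the proliferation marker Mki67 one of 0.03 (limma adjusted p = 0.945). Rrm2 had 2 probe sets, and their mean gave -0.36 (limma adjusted p = 0.219).

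Since Plk2, Plk3 and Btg2 also answer to growth signals, 19 immediate early genes were set beside them. All 19 had positive fold changes, with a median of 0.40, while Btg2 had a negative one. Of the 19, 1 rose and 0 fell in limma, and 15 were higher at an unadjusted p under 0.05, beside 8.77% of all genes. Fosb, a subunit of the AP-1 transcription factor, rose by 0.46 (SE 0.08, limma adjusted p = 0.041), from 5.33, 5.63, 5.60 and 5.42 in controls to 6.00, 6.05, 5.88 and 5.90 in K320E. It passed in 0 of the 8 fits that left out 1 array each, with adjusted p up to 0.101 in limma. Ccn1, a matrix protein, had a fold change of 1.18 (limma adjusted p = 0.066) and the zinc finger factor Egr1 one of 0.93 (limma adjusted p = 0.164), both highest in K320E replicate 1, at 9.74 and 9.94. The mean level of the 19 genes was 8.53 in K320E replicate 1, 8.07 to 8.17 in the other 3 K320E arrays and 7.64 to 7.87 in controls.

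**Figure D3:**
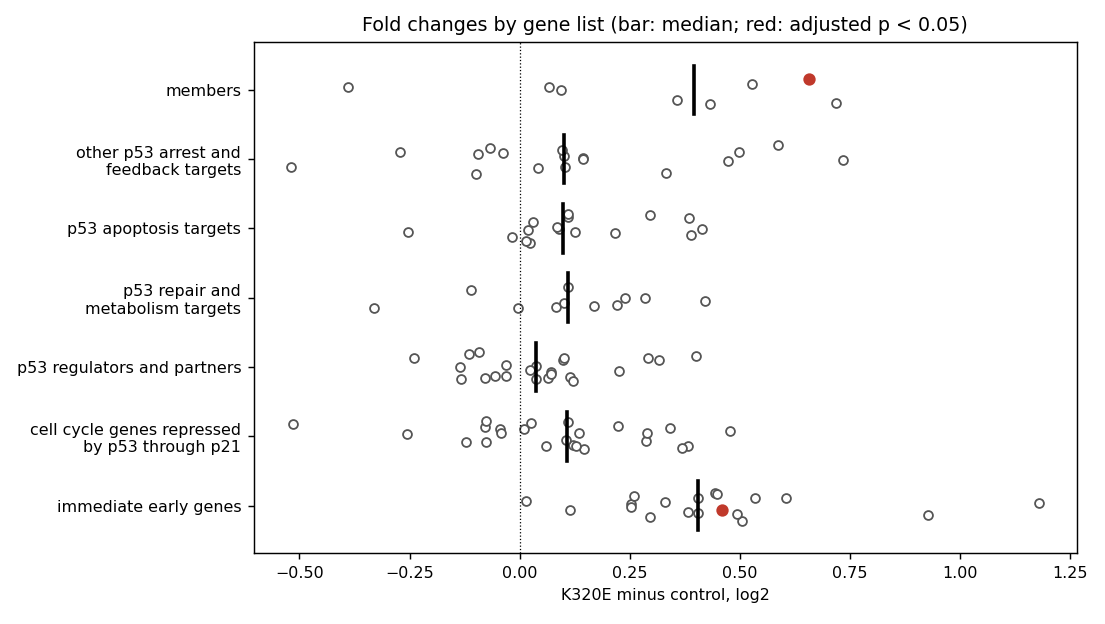
Fold change between K320E and control on the log2 scale for every measured gene of each list (circles), with the median as a bar and genes at an adjusted p under 0.05 in red. The 8 members and the 19 immediate early genes both have a median of 0.40, and the other lists lie between 0.04 and 0.11.

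The 5 genes whose levels over the 8 arrays lay nearest to those of Plk2 were Nt5e, an ectonucleotidase, Ppa1, a pyrophosphatase, Anln, which encodes the actin-binding protein anillin, Cars, a cysteinyl-tRNA synthetase gene, and Fhl3, a LIM domain gene. Nearness was the root mean square distance between log2 levels centred on each gene's own mean. Genes with Gm, LOC or Rik names were left out of this search. Nt5e was at 0.07, Ppa1 and Anln at 0.09, Cars at 0.09 and Fhl3 at 0.10. Their fold changes ran from 0.56 (Cars) to 0.62 (Ppa1), close to the 0.66 of Plk2 by construction.

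Markers of other cells moved between the groups too. In bulk epidermis, fewer cells of a type and less RNA per cell cannot be told apart. Of 15 measured hair structure genes all 15 had negative fold changes, with a median of -1.02, and their mean level ran from 7.03 to 7.49 in K320E and from 7.62 to 9.30 in controls. The inner root sheath keratin genes Krt71 and Krt27 had fold changes of -1.37 and -1.26 (limma adjusted p = 0.132 and 0.135). With that level as a covariate, Plk2 had a fold change of 0.71 (limma adjusted p = 0.086), Ccng1 of 0.32, Cdkn1a of 0.21, Plk3 of 0.32, Phlda3 of 0.56, Btg2 of -0.52, Bbc3 of 0.15 and Mdm2 of -0.08. In that fit 3 genes were called in all, in place of 195. Basal keratinocyte markers, 5 measured with 4 positive fold changes, had mean levels of 10.50 to 10.78 in K320E and 10.29 to 10.48 in controls, and Krt14, which is expressed strongly in that layer, had a fold change of 0.27 (limma adjusted p = 0.141). Suprabasal markers overlapped, at 11.94 to 12.06 and 11.88 to 12.06, with Krt1 at 0.07 and Krt10 at -0.01. The hair structure level did not overlap between the groups, so the fit with that covariate cannot tell it apart from genotype. The part of these cell types in the results on the p53 targets was not tested.

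Without control replicates 2 and 3, whose sex-linked transcripts stood apart, Plk2 had a fold change of 0.63 (limma adjusted p = 0.016) and Plk3 one of 1.05 (limma adjusted p = 0.038), so that both kinases passed. Ccng1 was at 0.66, Cdkn1a at 0.57, Phlda3 at 0.20, Mdm2 at 0.18, Bbc3 at 0.0065 and Btg2 at -0.30, and 0 of these 6 passed, with 2 control arrays left.

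Among the other marker lists, the mean level was lower without overlap in K320E for sebocytes (7.43 to 7.67 against 7.76 to 8.24; Scd3 -0.63 and Mgst1 -0.21) and for Langerhans and dendritic cells (6.74 to 6.83 against 7.0 to 7.17; Cd207 -0.07). It was higher without overlap for neutrophils (5.67 to 5.75 against 5.32 to 5.64), and 1 of its 7 genes carried most of that: Cxcr2, named after its values were seen, had a fold change of 1.32 (limma adjusted p = 0.147). The other 6 lay between -0.02 and 0.20, among them the defining genes Ly6g and Mpo at 0.00 and 0.01, and 5 of the 7, these defining genes included, were in the lowest 33.3% of genes by mean level. The groups overlapped for the other lists. The median fold change was -0.34 for melanocytes (Dct -0.29, Tyrp1 -0.61), -0.57 for T cells (Cd3e -0.38, Cd3g -1.19), -0.11 for macrophages (Cd68 0.51, Adgre1 -0.10) and 0.20 for mast cells (Cpa3 0.65, Mcpt4 0.35). It was 0.42 for skeletal muscle (Myh3 0.19, Myh8 0.80), 0.19 for fibroblasts (Col1a1 0.28, Col1a2 0.51), 0.07 for endothelium (Pecam1 0.19, Cdh5 0.10), 0.17 for fat cells (Adipoq 0.57, Plin1 0.05) and 0.01 for the 1 measured erythroid gene. None of these first markers passed limma's threshold. Among all the cell markers 3 passed limma's threshold, named here after their values were seen. Far2, on the sebocyte list, fell by 0.39. Thy1, on the T cell list, rose by 0.69 and had the 1 positive fold change among its 4 measured genes. H2-Ab1, on the Langerhans and dendritic list, fell by 0.98. All 5 measured genes of that list had negative fold changes, with a median of -0.18, and Cd207 was in the lowest 33.3% of genes by mean level. The part of these cells in the results was not tested.

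**Figure D4:**
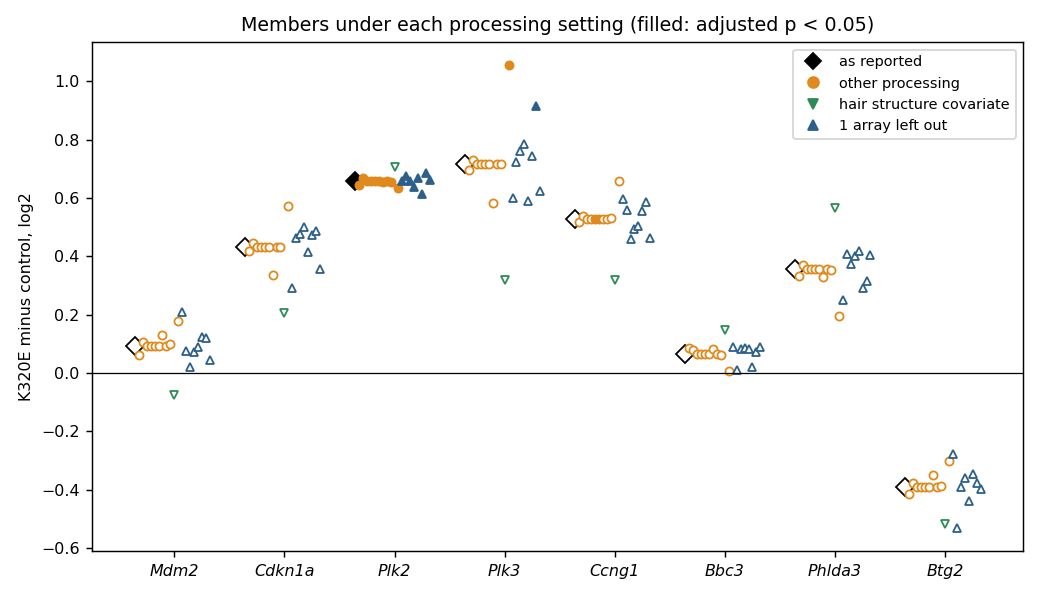
Fold change of the 8 measured targets on the log2 scale as reported (black), with other processing (orange), with the level of hair structure genes as a covariate (green) and with 1 array left out (blue), and filled symbols for an adjusted p under 0.05 in limma. Orange also holds the fit without control replicates 2 and 3 together, which gave the highest Plk3 value, 1.05. Plk2 stays between 0.61 and 0.71 and is filled in all settings but the hair covariate, while Mdm2 crosses 0 in that setting.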

How the data were processed

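The authors deposited log2 intensities for 33793 probe sets on 8 arrays, and how background, summarisation and normalisation were done is not given in the sources used here. They were used as they stand. Per the labels' protocols, biotin-labelled material was made with the Applause WT-Amp Plus ST kit. Probe sets were named through GEO's platform annotation, with symbols updated from RefSeq's gene table of GRCm38.p6. A single gene was named for 23521 probe sets, several for 1814 and none here for 8458. A gene with several kept its highest by mean.

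Groups came from the sample titles. K320E was compared with control in limma 3.58.1 (R 4.3.3, lmFit and eBayes, genotype as the only term, 8 arrays), and p-values were adjusted over 22180 genes by Benjamini-Hochberg. The intervals of the pairs pool the spread of both groups. Of 236 entries in the other lists, 216 were measured. The members and lists were chosen with earlier results of these data known. The text names the members, their paired relatives, the called genes of each list or else its 2 largest changes and its brightest gene, the first 2 markers of each cell type where measured and the 5 genes nearest to Plk2. Sfn, Sesn1, Trp63, Trp73, Cxcr2 and, beside Fosb, Ccn1 and Egr1 were picked with their values in view. The script was tested on simulated data. The 19 alternatives were other normalisations, probe set rules, a filter, priors, weights, a replicate block, 2 covariates, and arrays left out.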

Additional observations from a re-analysis of the deposited data

Results flagged for a closer look

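In the K320E group, Bbc3 measured 5.91 in replicate 2 and at most 5.69 in the other 3 arrays, so that 1 array stood apart from the rest by Dixon's test. This was the 1 group marked among 16 checked (8 genes in both genotypes), where chance marks about 5%.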

How the results depend on the processing

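Plk2 passed the threshold in 18 of 19 alternatives, with fold changes from 0.61 to 0.71, and missed it with the hair structure covariate (limma adjusted p = 0.086). Of the 8 measured targets, 1 was called as reported, 2 without the lowest 33.3% of genes, 2 with an intensity trend and a robust prior, 2 without control replicates 2 and 3 together, 0 with the hair structure covariate, and 1 to 2 when 1 array was left out. Over all genes, 195 were called as reported, 114 with the replicate block, 3 with the hair structure covariate and 53 to 173 with 1 array left out: 105, 173, 53 and 77 without K320E replicates 1, 2, 3 and 4, and 87, 87, 171 and 118 without control replicates 1, 2, 3 and 4. Of the genes in the other p53, cell cycle, immediate early and relatives lists, 2 were called as reported (Fosb and Phlda1), 1 with the replicate block, 1 with the Y-linked level as a covariate, 0 with the hair structure covariate and 0 to 3 with 1 array left out. The replicate number gave no clear sign of pairing. Deviations of same-numbered arrays from their group means correlated between -0.06 and 0.14, and 2 of 4 K320E arrays correlated best with their own number. With so few arrays these values cannot exclude pairing. With the replicate block Plk2 had a limma adjusted p of 0.028. The sign of Plk2 minus Plk3 changed in 3 of 12 alternatives, and the lowest adjusted p of any pair in any alternative was 0.0571.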
